A study of Mus musculus with 6 samples.

Results

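Acta1, Tagln, Rhob and Srf are 4 genes tied to the actin cytoskeleton, and they were measured by 5 probes among the 13183 named probes (8566 genes) of a mouse osteoblastic cell line exposed to fluid flow. Every probe annotated to 1 of these 4 symbols was taken, which gave 2 probes for Srf and 1 for each of the other genes. The 4 genes were selected on their log-transformed flow/no flow ratios on these same arrays, so those ratios are given below as a description, with no test. The cells were MC3T3-E1, an osteoblast precursor line derived from newborn mouse skull and here a single subclone, and flow was produced by orbital shaking of culture plates. The 6 conditions were CF0 and CF1 (continuous flow for 60 min), RF0 and RF1 (rest-inserted flow, 4 bouts of 5 min of flow with 10 min of rest after each) and NF0 and NF1 (no flow), where the digit is the time in hours between the end of the flow period and RNA isolation. The array was the Illumina MouseWG-6 v2.0, with 1 array per condition. Each array received a pool of RNA from 3 experiments, so replicate arrays are lacking and the spread between experiments is not measured.

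Serum response factor (SRF) is a transcription factor that binds a short DNA element called the CArG box. One set of cofactors, the myocardin-related transcription factors, is held by unpolymerized actin and is released to SRF when actin filaments assemble, so that tension reaches genes of the contractile apparatus. Another set, the ternary complex factors, is phosphorylated by ERK and drives immediate early genes through SRF. Acta1 encodes skeletal muscle alpha-actin, Tagln encodes transgelin (SM22 alpha), an actin-bundling protein, and both are classical SRF targets. Rhob encodes a small GTPase that acts on endosomes and actin stress fibers and is itself induced early by many stimuli, and Srf is known to be regulated by its own protein. In bone, flow of fluid over the cells is the signal through which mechanical loading is sensed.

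On the GRCm38.p6 assembly, Acta1 lies at chr8:123891758-123894775, Tagln at chr9:45929628-45936058, Rhob at chr12:8497661-8500009 and Srf at chr17:46546838-46558267, as annotated in RefSeq. RefSeq promoter windows of 300 bases, running from 250 bases before to 50 after a start site, were found for 3 of the 4 genes. They are shown because the CArG box is the element through which SRF acts. All 3 are on the minus strand and are written 5′ to 3′, with full CArG boxes in capitals. A full box was searched as CC, then 6 letters that are each A or T, then GG, which reads as the same motif on both strands. The windows are chr8:123894726-123895025 for Acta1, chr12:8499960-8500259 for Rhob and chr17:46556113-46556412 for Srf. The Srf window belongs to a start site at position 46556162, inside the span of the annotated gene.
Acta1: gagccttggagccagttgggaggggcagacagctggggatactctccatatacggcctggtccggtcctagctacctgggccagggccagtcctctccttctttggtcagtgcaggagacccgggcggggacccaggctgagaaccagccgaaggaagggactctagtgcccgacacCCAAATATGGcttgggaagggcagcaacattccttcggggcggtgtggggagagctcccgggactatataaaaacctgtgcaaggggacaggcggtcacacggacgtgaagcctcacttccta
Srf: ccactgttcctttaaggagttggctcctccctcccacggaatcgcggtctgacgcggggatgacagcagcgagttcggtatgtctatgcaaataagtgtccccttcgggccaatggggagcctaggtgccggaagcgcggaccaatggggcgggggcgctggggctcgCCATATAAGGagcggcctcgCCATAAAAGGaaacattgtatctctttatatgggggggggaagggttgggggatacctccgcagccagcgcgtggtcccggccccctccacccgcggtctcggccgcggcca
Rhob: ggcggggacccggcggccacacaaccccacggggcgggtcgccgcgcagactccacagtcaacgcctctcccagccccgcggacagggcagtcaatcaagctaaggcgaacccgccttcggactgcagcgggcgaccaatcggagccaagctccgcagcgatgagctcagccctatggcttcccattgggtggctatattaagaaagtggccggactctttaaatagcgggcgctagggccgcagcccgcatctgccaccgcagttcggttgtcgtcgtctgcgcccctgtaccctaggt

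The Acta1 window held 1 full box, CCAAATATGG, which begins 73 bases before the start site, and 2 further places that differ from a box by 1 letter, 205 and 154 bases before it. The Srf window held 2 full boxes close together, CCATATAAGG and CCATAAAAGG, which begin 82 and 62 bases before the start site, and 1 place with 1 letter off at 39 bases. The Rhob window held 0 boxes and 0 places within 1 letter. Of all 32851 promoter windows of this length, 535 (1.63%) held a full box, whereas 21.1% held a match within 1 letter, so the looser match is common. A match in letters is a description of the window and does not show binding of SRF.

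**Figure D1:**
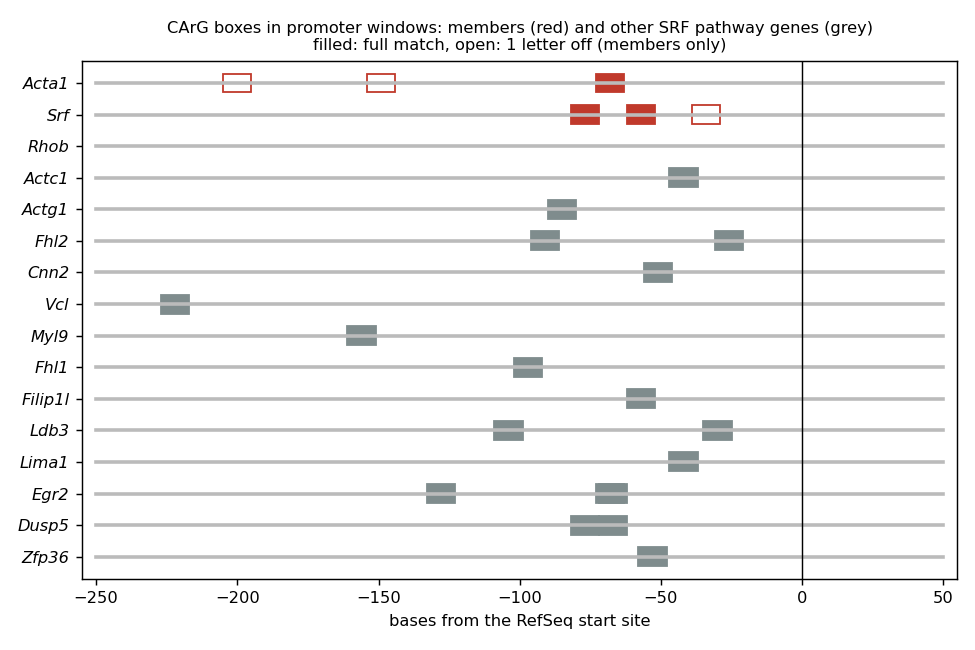
Position of CArG boxes in promoter windows, in bases from the RefSeq start site, for the 3 members with a window (red) and for the other genes of the SRF lists with a full box (grey). Filled blocks are full boxes and open blocks, drawn for the members only, are 1 letter off; Fhl2, Ldb3 and Egr2 have several start sites and are drawn from each, so that 1 box of Ldb3 or Egr2 can appear more than once. The full box of Acta1 begins at -73 and those of Srf at -82 and -62, while the Rhob line is empty.

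Acta1 had log2 normalized intensities of 6.13 on CF0, 5.75 on RF0 and 5.11 on NF0, and of 5.53 on CF1, 5.32 on RF1 and 4.62 on NF1. These correspond to background-subtracted signals of 72.3, 55.7 and 33.9 at 0 h and of 46.1, 39.6 and 23.7 at 1 h, in the same order. Both flow arrays were above the no flow array at both time points, with continuous flow the higher of the pair. The difference from no flow was 1.02 (2.03-fold) on CF0 and 0.64 (1.56-fold) on RF0, and 0.91 (1.88-fold) on CF1 and 0.70 (1.63-fold) on RF1. Among the 13183 named probes, ordered from the most positive difference, Acta1 was at rank 68 on CF0, 320 on RF0, 130 on CF1 and 258 on RF1. Among the 10785 probes detected on all 6 arrays (detection p under 0.01) those ranks were 14, 70, 5 and 24. In RNA from whole cultures, more RNA per cell and more cells with the RNA cannot be told apart.

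The lasting difference of Acta1 was a difference between arrays that were all lower at 1 h. Its log2 intensity on NF1 was 0.49 below NF0, that on CF1 was 0.60 below CF0, and that on RF1 was 0.42 below RF0. Set against the mean of both no flow arrays, a reference chosen after seeing the data, the differences were 1.27 on CF0, 0.88 on RF0, 0.67 on CF1 and 0.46 on RF1. The size of the 1 h difference therefore rests in part on the single NF1 array, on which the Acta1 probe was at 4.62 and the lowest probe called detected was at 4.22.

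Tagln had log2 intensities of 6.52 on CF0, 6.41 on RF0 and 5.79 on NF0, and of 6.29 on CF1, 6.21 on RF1 and 5.96 on NF1. The flow arrays were again above no flow at both time points, and CF and RF lay close to each other. The differences from no flow were 0.73 (1.66-fold) on CF0 and 0.62 (1.54-fold) on RF0, against 0.33 (1.25-fold) on CF1 and 0.25 (1.19-fold) on RF1. The smaller 1 h differences came with lower values on both flow arrays, by 0.23 for CF and 0.20 for RF, and with a no flow value that was 0.17 higher at 1 h than at 0 h. In rank from the top, Tagln was at 252 on CF0 and 343 on RF0, and at 1188 on CF1 and 1543 on RF1.

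Rhob had log2 intensities of 8.23 on CF0, 8.07 on RF0 and 7.67 on NF0, and of 8.18 on CF1, 7.88 on RF1 and 7.60 on NF1. With continuous flow its value barely moved between the time points (-0.045), and so did that of no flow (-0.072). The difference from no flow was 0.55 (1.47-fold) on CF0 and 0.58 (1.5-fold) on CF1, and it was 0.40 (1.32-fold) on RF0 and 0.28 (1.21-fold) on RF1. Rhob was the only one of the 4 genes whose difference under continuous flow was no smaller at 1 h than at 0 h.

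Srf, by the probe with the higher mean, had log2 intensities of 9.55 on CF0, 9.12 on RF0 and 8.74 on NF0, and of 8.37 on CF1, 8.59 on RF1 and 8.48 on NF1. The 3 arrays were well apart at 0 h and lay within 0.21 of each other at 1 h, with continuous flow the lowest. The difference from no flow was 0.82 (1.76-fold) on CF0 and 0.39 (1.31-fold) on RF0, against -0.10 (0.931-fold) on CF1 and 0.11 (1.08-fold) on RF1. Between the time points the Srf probe was 1.18 lower under CF, 0.53 lower under RF and 0.26 lower under NF. Its rank from the top was 181 on CF0, 923 on RF0, 9349 on CF1 and 3391 on RF1.

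The other Srf probe was detected on CF0 and RF0 and on no other array. Its log2 intensities were 4.50 on CF0, 4.16 on RF0 and 3.32 on NF0, the last being the floor that the authors set. Against the lowest probe detected on NF0 (3.98), the bound is at least 1.43-fold higher on CF0 and at least 1.13-fold higher on RF0. At 1 h the probe had 3.72 on CF1, 3.37 on RF1 and 3.32 on NF1, all undetected, and no fold is given. Both Srf probes thus had the order CF, RF, NF at 0 h.

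**Figure D2:**
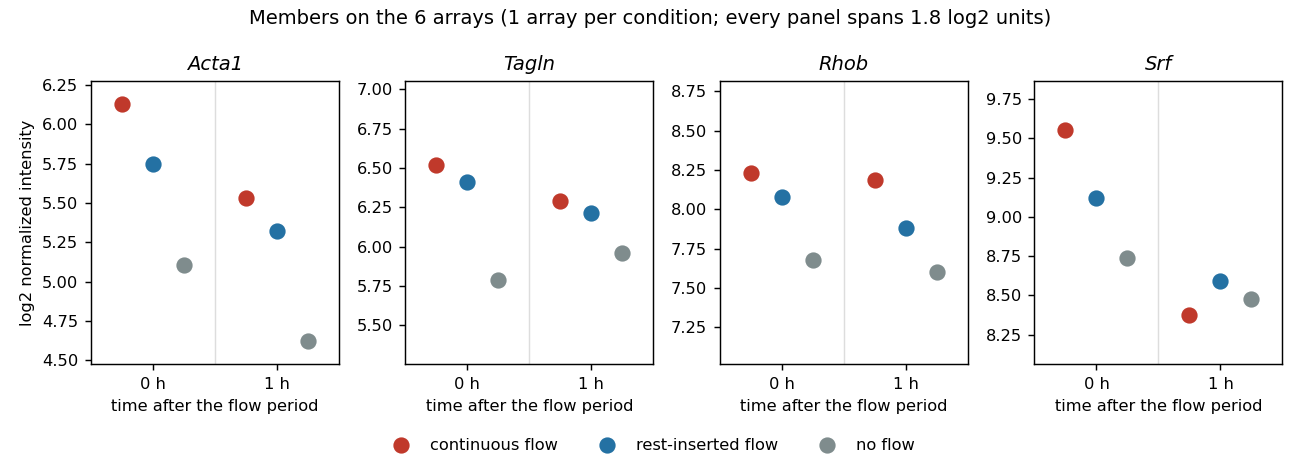
Log2 normalized intensity of Acta1, Tagln, Rhob and Srf (probe with the higher mean) on the 6 arrays, with continuous flow in red, rest-inserted flow in blue and no flow in grey, at 0 h and at 1 h after the flow period. Each point is 1 array and there are no error bars, since no condition has a replicate. The 3 arrays of a time point keep the order CF, RF, NF in every panel except Srf at 1 h, where CF1 (8.37) lies under NF1 (8.48).

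A log2 difference of at least 0.5, or 1.41-fold, was used as the size that counts, and over all named probes it was passed upward by 592 probes (4.49%) on CF0, 580 (4.4%) on RF0, 600 (4.55%) on CF1 and 591 (4.48%) on RF1. Downward it was passed by 4.41% on CF0, 4.52% on RF0, 4.56% on CF1 and 3.96% on RF1, so upward and downward shares were near equal over the table. Counting the probe with the higher mean for Srf, 4 of the 4 genes passed it upward on CF0, 2 on RF0 (Acta1 and Tagln), 2 on CF1 (Acta1 and Rhob) and 1 on RF1 (Acta1). The genes were selected on these ratios, and nothing is read from the counts. The values just inside the limit were Rhob on CF0 (0.55) and on CF1 (0.58), and the values just outside it were Rhob (0.40) and Srf (0.39) on RF0.

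Sorted by time, Acta1 and Rhob had lasting differences under continuous flow, Tagln had a smaller log2 difference at 1 h than at 0 h (0.33 against 0.73), and Srf had a transient one. Over all named probes, 83 (0.63%) were at least 0.5 above no flow at both time points under continuous flow, and 88 (0.668%) under rest-inserted flow. Put as a share of the probes that passed at 0 h, 14.0% also passed at 1 h under continuous flow and 15.2% under rest-inserted flow, and the median 1 h difference of those probes was 0.016 and 0.00. Most probes that passed at 0 h therefore did not pass at 1 h, as Srf and Tagln did not. Of the 206 probes detected on all 6 arrays that passed on CF0, 11 also passed on CF1, Acta1 and Rhob among them. Acta1 was 1 of 21 probes that passed in all 4 comparisons. The difference between the 0 h and the 1 h effect was not tested, because with 1 array per condition an interaction of flow and time leaves no residual degrees of freedom.

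**Figure D3:**
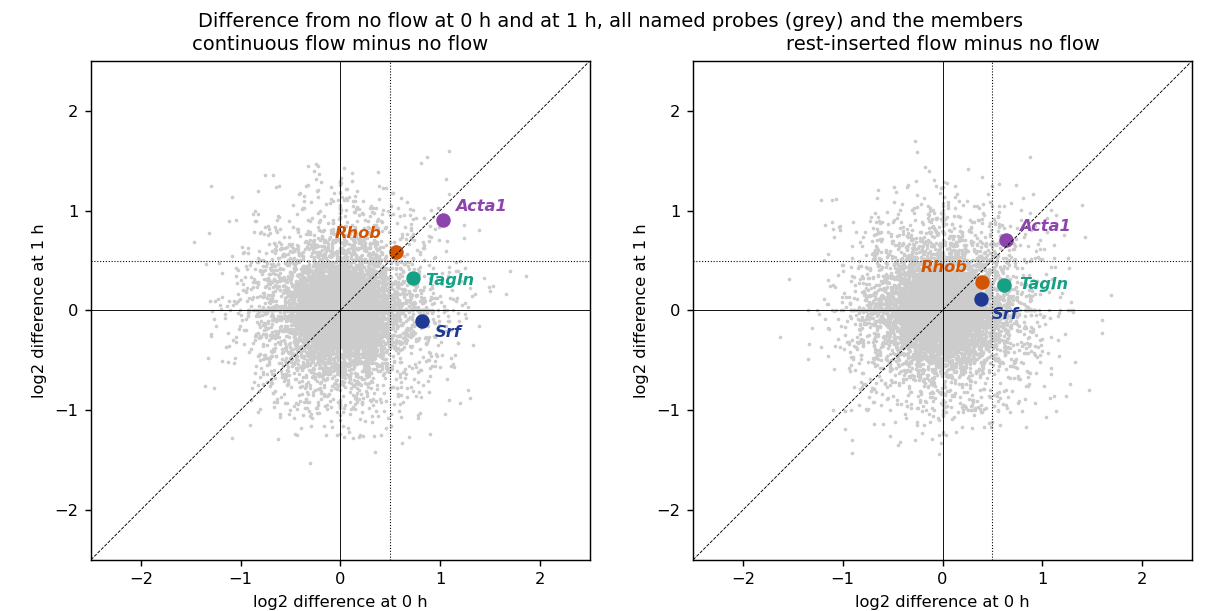
Log2 difference from no flow at 0 h (horizontal) and at 1 h (vertical) for all 13183 named probes in grey and the 4 members in color, under continuous flow (left) and rest-inserted flow (right). The dotted lines mark 0.5 and the dashed line equal differences; under continuous flow Acta1 (1.02 and 0.91) and Rhob (0.55 and 0.58) lie near the dashed line, and Srf (0.82 and -0.10) lies under the horizontal axis line.

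The design also sets rest-inserted flow against continuous flow. Acta1 was lower with rest-inserted flow by 0.39 on the log2 scale at 0 h and by 0.21 at 1 h, Tagln by 0.11 and 0.073, and Rhob by 0.15 and 0.30. The Srf probe was lower with rest-inserted flow at 0 h (-0.43) and higher at 1 h (0.21). In limma over all 6 arrays, with flow and time point in an additive model, the mean RF minus CF difference of Acta1 was -0.30 ± 0.089 (SE), with a 95% interval of -0.54 to -0.051. It was -0.23 ± 0.086 for Rhob (-0.46 to 0.0088), -0.091 ± 0.13 for Tagln (-0.46 to 0.28) and -0.11 ± 0.24 for Srf (-0.78 to 0.56). In this model a flow effect that differs between the time points adds to the residual spread. The residual SD was 0.33 for Srf and 0.055 for Rhob. The undetected values of the other Srf probe enter the fit at or near the floor, and its estimate was -0.35 ± 0.24 (-0.996 to 0.30).

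None of these 5 differences passed the test, with a limma adjusted p of 0.999 for each over all named probes. The unadjusted limma p was 0.0281 for Acta1, 0.0557 for Rhob, 0.534 for Tagln and 0.681 for Srf. Of all named probes 0 (0%) passed at an adjusted p under 0.05 and 625 had an unadjusted p under 0.05. The intervals allow a difference of 0.54 log2 units in Acta1 and of 0.78 in Srf, so equal responses to the 2 regimens are not shown either. The genes were chosen with the values of the CF arrays in view, so this comparison is not fully independent of the choice. The Acta1 interval included 0 under limma-trend (-0.66 to 0.074), without the time point in the model (-1.01 to 0.42), with an offset of 50 (-0.31 to 0.0049) and with any 1 array left out. The Acta1 interval lay below 0 under median scaling (-0.55 to -0.053) and among probes detected on all 6 arrays (-0.51 to -0.079). The Rhob interval lay below 0 under median scaling (-0.47 to -0.0021) and with an offset of 50 (-0.35 to -0.034). It also did so with the all-array filter (-0.44 to -0.017) and under limma-trend (-0.40 to -0.050). It included 0 without the time point (-0.49 to 0.034) and with any 1 array left out. Leaving out the CF0 array turned the sign of the estimate for Tagln to 0.019 and for Srf to 0.28.

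**Figure D4:**
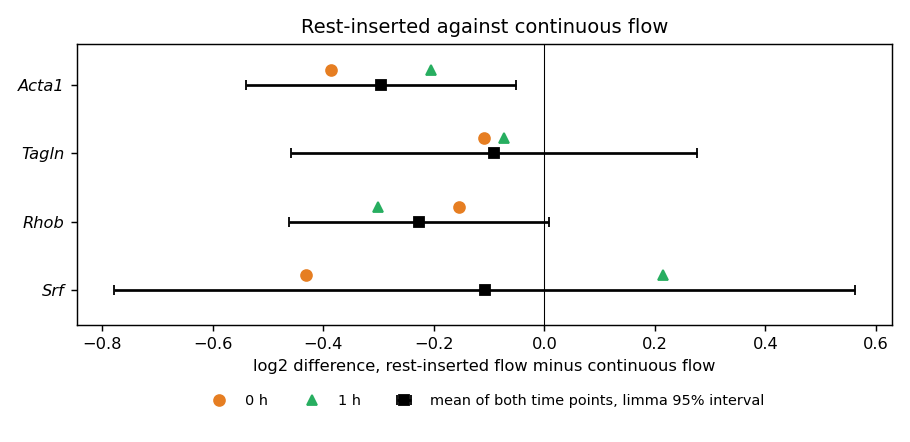
Log2 difference between rest-inserted and continuous flow for the 4 members, at 0 h (circles) and 1 h (triangles), with the limma estimate over both time points (squares) and its 95% interval (bars). All Acta1, Tagln and Rhob points lie left of 0, and those of Srf lie on either side of it (-0.43 and 0.21).

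The difference between flow and no flow was fitted in the same model for all other genes. At an adjusted p under 0.05 limma called 0 probes (0%) for continuous flow against no flow and 0 probes (0%) for rest-inserted flow against no flow, where 804 (6.1%) and 711 (5.39%) had an unadjusted p under 0.05. The pathway genes below are therefore described by their differences, and none of them passed the test. Each list is given without the 4 members, by the probe with the highest mean for each gene.

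By the probe with the highest mean, the other measured actin genes did not share the differences of Acta1. Of 5 further actin genes, 3 had a named probe, and 0 of the 3 passed 0.5 in either direction in any comparison. Acta2, smooth muscle alpha-actin, had differences of 0.06 on CF0, 0.15 on RF0, 0.03 on CF1 and 0.11 on RF1. Actb, the cytoplasmic beta-actin, had -0.02, 0.01, 0.12 and 0.01, and Actg2, the enteric smooth muscle actin, had 0.15, 0.14, 0.04 and 0.24, in the same order. The probes read for Acta2 (1 of 4) and Actb (1 of 5) had means of 14.30 and 14.00 over the arrays, against 5.41 for Acta1. Whether probes this bright can show such differences was not tested.

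Of 17 SRF cofactors and partners, 11 were measured, 8 of them on all 6 arrays. At least 0.5 above no flow there were 1 on CF0, 0 on RF0, 1 on CF1 and 2 on RF1. The shares of all named probes were 4.49%, 4.4%, 4.55% and 4.48%. At least 0.5 below it there were 0, 1, 0 and 0. Mical2, an enzyme that oxidizes actin in the nucleus and is known to act on the SRF cofactors, had differences of 0.38 on CF0, 0.23 on RF0, 0.44 on CF1 and 0.59 on RF1. Mrtfb, a myocardin-related cofactor of SRF, passed 0.5 on CF0 (0.57) and CF1 (0.54), but its probe was detected on 1 of the 6 arrays. Elk3 and Elk4, ternary complex factors, had 0.30 and 0.11 on CF0 and -0.12 and 0.15 on CF1. On RF0 they had 0.30 and -0.05, and on RF1 -0.05 and 0.03. Scai was -0.53 on RF0 (detected on 4 arrays) and Phf8 was 1.33 on RF1 (detected on 1 array).

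Among cytoskeletal and contractile genes known as targets of SRF and its actin-regulated cofactors, 41 of 50 were measured. On CF0, 6 of them were at least 0.5 above no flow and 1 at least 0.5 below, on RF0 5 and 2, on CF1 1 and 1, and on RF1 1 and 1. Over all named probes the shares were 4.49% above and 4.41% below on CF0, 4.4% and 4.52% on RF0, 4.55% and 4.56% on CF1, and 4.48% and 3.96% on RF1. Among probes detected on all 6 arrays, which 39 of the 41 genes were, the shares above were 1.91% on CF0, 1.71% on RF0, 1.59% on CF1 and 1.41% on RF1. Most of the 41 lay above 0, by small amounts, with 33 above on CF0, 37 on RF0, 28 on CF1 and 29 on RF1. Their medians were 0.15, 0.12, 0.071 and 0.068 in that order, against medians of 0.00 or nearly so over all named probes. CF and RF of a time point are set against the same no flow array, so their counts are not independent, and some genes of this list, such as the actins, stand in other lists too.

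The genes with the largest differences in that list were transient, like Srf. They were named by their largest difference in any 1 comparison, which favors values high at 1 time point. Of all named probes that passed 0.5 on CF0, the median difference on CF1 was 0.016. Ccn2, the matricellular protein CTGF, had log2 intensities of 11.90 on CF0, 11.05 on RF0 and 10.04 on NF0, and of 10.48 on CF1, 10.34 on RF1 and 10.13 on NF1. Its differences were 1.86 on CF0, 1.01 on RF0, 0.35 on CF1 and 0.20 on RF1. Ankrd1, a nuclear ankyrin repeat protein of muscle that responds to stretch, had 1.19, 0.64, -0.11 and -0.32. Ccn1, the matricellular protein CYR61, had 1.01, 0.79, -0.32 and -0.51, so that it was above no flow at 0 h and below it at 1 h under both regimens. Ccn2, Ccn1 and Ankrd1 are also known targets of YAP, the other transcription regulator that follows tension.

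The other named genes of the list had time courses that differed from each other. Lmod1, leiomodin, which nucleates actin filaments, had 0.73 on CF0 and 0.53 on CF1, whereas on RF0 and RF1 it had 0.37 and 0.01. Fhl1, a LIM-only protein, had 0.28 on CF0 and 0.61 on RF0 and -0.07 and -0.16 at 1 h. Enah, the filament elongation factor Mena, went the other way with -0.58 on CF0 and -0.82 on RF0, and had 0.30 on CF1 and -0.29 on RF1. Both probes were dim. Fhl1 was at 4.26 on NF0, where the lowest detected probe was at 3.98. Enah was at 4.35 on RF0, where the lowest was at 4.14. Smtn and Lima1, actin-binding proteins named here after their values were seen, had small differences of the same size throughout: 0.28, 0.33, 0.25 and 0.25 for Smtn, and 0.31, 0.27, 0.24 and 0.30 for Lima1. At an unadjusted limma p under 0.05 there were 9 of the 41 for continuous flow, beside 6.1% of all named probes. For rest-inserted flow there were 4 (Cnn2, Smtn, Lima1 and Mical2), beside 5.39%. The 9 were Ccn2, Lmod1, Smtn, Lima1, Mical2, Myh10, Flnc, Pdlim7 and Tln1. Of these Tln1 was below no flow (-0.50), with a probe detected on 1 of the 6 arrays. After adjustment the limma p was 0.775 for Smtn under continuous flow and 0.799 for Cnn2 under rest-inserted flow.

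Of 23 immediate early targets of SRF and the ternary complex factors, 15 were measured. At least 0.5 above no flow there were 6 on CF0, 3 on RF0, 1 on CF1 and 0 on RF1, beside 4.49%, 4.4%, 4.55% and 4.48% of all named probes, and at least 0.5 below it there were 2 on CF1 and 0 in the other comparisons. Among probes detected on all 6 arrays, which 14 of the 15 genes were, the shares above were 1.91%, 1.71%, 1.59% and 1.41%. The median difference was 0.33 on CF0 and 0.28 on RF0, and 0.029 on CF1 and -0.056 on RF1. Egr3, a zinc finger transcription factor, had 1.66 on CF0, 0.95 on RF0, 0.16 on CF1 and -0.37 on RF1. Ier3, an early response gene of cell survival, had 0.63, 0.28, -0.03 and -0.06. Dusp1, a phosphatase that switches off MAP kinases, had 1.08, 0.56, -0.10 and -0.21, and Zfp36, which destabilizes cytokine mRNAs, had 0.60, 0.48, 0.03 and -0.09. Fos had 0.27 and 0.32 at 0 h, and was -0.67 on CF1 and -0.01 on RF1. Klf4 differed in its timing, with 0.25 on CF0, -0.09 on RF0, 0.60 on CF1 and 0.25 on RF1.

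Genes of actin nucleation, assembly and turnover were read as a further list. Of 58 genes 43 were measured, and 1 passed 0.5 upward on CF0, 2 on RF0, 1 on CF1 and 1 on RF1, beside 4.49%, 4.4%, 4.55% and 4.48% of all named probes. Downward there were 1, 1, 0 and 0. Among probes detected on all 6 arrays, which 41 of the 43 genes were, the upward shares were 1.91%, 1.71%, 1.59% and 1.41%. Of the genes counted upward, Vasp on RF0 (5 arrays) and Svil on RF1 (1 array) were not detected on all 6. Cttn, cortactin, which stabilizes branched filaments, had 0.45 on CF0, 0.65 on RF0, -0.26 on CF1 and 0.07 on RF1. In each of these lists limma called 0 genes in every contrast.

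**Figure D5:**
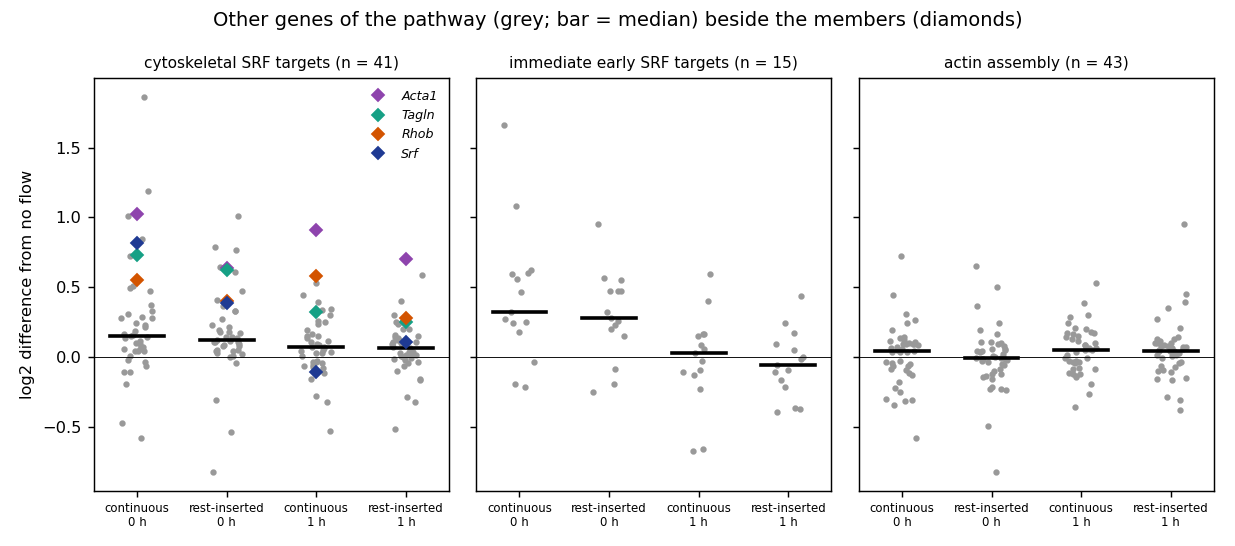
Log2 difference from no flow for the measured genes of 3 pathway lists (grey points, 1 per gene), with the list median as a bar and the 4 members as colored diamonds in the first panel. Cytoskeletal SRF targets have medians of 0.15, 0.12, 0.071 and 0.068 for continuous 0 h, rest-inserted 0 h, continuous 1 h and rest-inserted 1 h, and the immediate early targets have 0.33, 0.28, 0.029 and -0.056.

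The probes most like each member over the 6 arrays were taken from those detected on all 6 with an SD of at least 0.5 times that of the member. For Acta1 these were Mob3a (Pearson r of 0.963), Tspan17 (0.95) and Ints6l (0.922), out of 684 candidates. Mob3a had differences of 0.63 on CF0, 0.46 on RF0, 0.29 on CF1 and 0.30 on RF1. For Tagln they were Itgav (0.980), the integrin alpha V chain, Hook3 (0.974) and Anxa2 (0.972), an actin-binding annexin, out of 3869 candidates. For Rhob they were Fam117b (0.979), Abhd5 (0.965) and Zfp58 (0.957), out of 4181, and Fam117b had 0.61, 0.37, 0.73 and 0.49 in that order. For Srf they were Irak2 (0.994), Fhl2 (0.989) and Ankrd1 (0.984), out of 1236.

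Of the 3 probes nearest to Srf, Fhl2 and Ankrd1 stand in the SRF lists, whereas none of those named for Acta1, Tagln and Rhob does. How many of the candidates stand in these lists was not counted, so nothing is read from this. Fhl2, a LIM-only protein that binds SRF, had 0.50 on CF0 and 0.22 on RF0, and 0.05 on CF1 and 0.12 on RF1, and Irak2, a kinase of interleukin 1 signaling, had 0.64, 0.40, -0.05 and 0.08. The Ankrd1 probe closest to Srf, the dimmer of its 2, had 1.33, 0.83, -0.35 and -0.18. Among the members, r was 0.918 for Acta1 and Rhob, 0.909 for Rhob and Tagln and 0.864 for Acta1 and Tagln, against 0.761 for Acta1 and Srf, 0.60 for Tagln and Srf and 0.498 for Rhob and Srf. The members were selected on their flow/no flow ratios on these same arrays, so likeness among them follows in part from the choice. These correlations are over 6 arrays, 2 of which are the no flow arrays against which every difference is taken, and they are given as a description with no p.

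Full CArG boxes were present in the promoter windows of 10 of 43 cytoskeletal SRF targets (23.3%) and 3 of 18 immediate early targets (16.7%), against 488 of all 27025 genes with a window (1.81%), measured here or not. The targets were listed because they are known to be bound by SRF, so this share describes the lists. Some of the boxes are shown beside the differences of their genes, because they are the counterparts of the Acta1 and Srf boxes above.
Lima1: CCTTATAAGG
Cnn2: CCTTATAAGG
Fhl1: CCTAAAATGG
Myl9: CCTAATAAGG
Zfp36: CCATAAAAGG
The Zfp36 box is identical in letters to one of the Srf boxes. Dusp5 and Egr2, whose boxes have other letters, had differences near those of Zfp36, with 0.59, 0.47, -0.09 and -0.17 for Dusp5 and 0.46, 0.48, 0.08 and -0.10 for Egr2. Lima1 and Cnn2 share 1 box sequence, which Vcl and Filip1l also hold, and both were above no flow in all 4 comparisons, Cnn2 with 0.17 on CF0, 0.33 on RF0, 0.16 on CF1 and 0.40 on RF1. Myl9, the regulatory myosin light chain, had 0.16, 0.11, 0.09 and 0.08.

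The same search was run over all measured genes with a window. A gene counted here if any of its probes passed, and over all measured genes with a window 119 of 7013 (1.7%) held a full box. Of the 454 genes with a window and a probe at least 0.5 above no flow on CF0, 15 (3.3%) held a full box, and of the 467 at least 0.5 below it 1 (0.214%) did. Acta1 and Srf, which were selected on these ratios, are among the 15, and Acta1 is in every upward set. On RF0 the shares were 2.9% above and 1.02% below, on CF1 2.29% and 1.5%, and on RF1 2.55% and 1.68%. The next values leave out the members and take the probe with the highest mean for each gene. The 117 other measured genes that held a box had a median difference of 0.047 on CF0 and 0.071 on RF0, and of 0.00 on CF1 and 0.020 on RF1. Of these 117 genes, 8 (6.84%) were at least 0.5 above no flow on CF0, against 242 of 7010 measured genes (3.45%). The counts were 7 (5.98%) against 3.32% on RF0, 8 (6.84%) against 3.45% on CF1 and 6 (5.13%) against 3.42% on RF1. In each comparison most of these genes had a probe not detected on all 6 arrays, such as Robo1 and Ldb3 (2 arrays each) on CF0. At least 0.5 below no flow there were 1, 3, 4 and 3 of the 117 on CF0, RF0, CF1 and RF1. Of the 7010 genes there were 259, 271, 247 and 221. These shares were not tested.

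Markers of the cell line and of other cell types stood beside the results as follows. Of 13 osteoblast markers 7 were measured, with Col1a1, Sparc and Sp7 detected on all 6 arrays and Alpl, alkaline phosphatase, on 2. Bglap2, osteocalcin 2, had -0.41 on CF0, -0.51 on RF0, 0.05 on CF1 and 0.17 on RF1. Since Acta1 and Tagln are named after muscle, muscle markers were read too. Of 28 other skeletal muscle genes 3 were measured (Myog, Myh8 and Mylpf), of which only Myh8 was detected on all 6 arrays. Their summed signal, before normalization, was 57.8 on CF0, 38.8 on RF0, 57.3 on NF0, 60.01 on CF1, 58.9 on RF1 and 51.8 on NF1. It did not follow flow at 0 h, and at 1 h it was higher on both flow arrays than on no flow. Myog was detected on 2 arrays and Mylpf on 3, so nothing further is read from this sum. Of 13 other smooth muscle genes 6 were measured, Lmod1, Smtn, Acta2 and Actg2 among them, with a summed signal of 25919 on CF0, 26432 on RF0, 23999 on NF0, 23294 on CF1, 25373 on RF1 and 23184 on NF1. Most of this sum is Acta2, and CF1 and NF1 lay close together in it. Of the 6 genes, 5 lay above no flow on CF0 and 6 on RF0, CF1 and RF1, with medians of 0.21, 0.24, 0.18 and 0.17, and their part in the results was not tested. Endothelial markers were measured for 1 of 10 genes, adipocyte for 0 of 8, macrophage and osteoclast for 5 of 12 and chondrocyte for 2 of 8.

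The arrays were alike in depth: 13472 to 14426 probes were detected per array and the median signal of detected probes was 105 to 123. The SD over all named probes was between 0.28 and 0.29 for each of the 4 differences from no flow, and the SD of the NF1 minus NF0 difference, which holds no flow effect, was 0.30.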

How the data were processed

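RNA of MC3T3-E1 cells was measured on 6 Illumina arrays, 1 per condition, grouped by the sample titles. The deposited intensities were background-subtracted by the authors in GenomeStudio and not otherwise normalized. The detection p-value beside each signal was deposited by the authors. For the RF1 array only the first 20000 rows of that column are p-values, and the remaining 25281 are a copy of the signal, so detection there was read from the signal. To make the deposited log2 values, the authors used lumi in R for quantile normalization, raised values under 10 to 10, took log2 and retained probes detected (p under 0.01) on 1 array or more. Repeating these steps gave the deposited values within 5e-08. Of 15686 probes, 13183 with 1 gene symbol and no RIKEN name were used. Per-sample columns not used numbered 0.

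Differences were taken between log2 values of single arrays. limma 3.58.1 (R 4.3.3, lmFit and eBayes, constant prior) was fitted to flow and time point over 6 arrays, leaving 2 residual degrees of freedom, with Benjamini-Hochberg adjustment over 13183 probes, and was tested on simulated data. The time points stand in for repeats, and the spread between experiments is not measured. The residual spread of this fit mixes the spread between these pools with any change of the flow effect between 0 h and 1 h. Its p-values cannot tell these apart. Promoter windows came from RefSeq (GRCm38.p6), and Tagln was not matched there. A gene of several probes is given by the one with the highest mean. Genes named in lists are those past a log2 difference of 0.5 in at least 1 comparison and detected on all 6 arrays, at most 6 a list, largest first, the measured actin genes, and the 3 probes most like each member; others were named after their values were seen. Some of the gene lists examined are not reported here. The members and lists were chosen with earlier results of these data known. Alternatives were median scaling, an offset of 50 for the floor, a filter to probes detected on all arrays, limma-trend, no time term, leaving out each array, a larger limit and, added after seeing the data, the mean of both no flow arrays as reference.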

Additional observations from a re-analysis of the deposited data

Results flagged for a closer look

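By the probe with the higher mean, Srf had differences of opposite sign at the 2 time points in 2 of its 3 comparisons. Its CF minus NF log2 difference was 0.82 at 0 h and -0.10 at 1 h. Its RF minus CF log2 difference was -0.43 at 0 h and 0.21 at 1 h, so on this probe the order of the regimens was turned round. Each value is a difference between 1 array and 1 array, and the difference between the time points was not tested. Over all named probes the SD of the NF1 minus NF0 difference was 0.30. The other Srf probe did not show the turned order. It had 3.72 on CF1, 3.37 on RF1 and 3.32 on NF1, but was undetected on all of these arrays.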

How the results depend on the processing

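In every setting limma called 0 probes for rest-inserted flow against no flow and against continuous flow. For continuous flow against no flow it called 0 probes in all settings except limma-trend, which called 6 (863 at an unadjusted p under 0.05), namely Acta1, 2 probes of Ccn2, Klf2, Mob3a and Rhob. Acta1 and Rhob were selected on this contrast. The cause was not tested. Leaving out each array in turn, RF minus CF ranged from -0.20 to 0.019 for Tagln and from -0.50 to 0.28 for Srf, with the sign turned (0.019 and 0.28) only without CF0. Of the 4 members, the number at least 0.5 above no flow was 4 on CF0, 2 on RF0, 2 on CF1 and 1 on RF1. With an offset of 50, which shrinks differences and most those of dim probes, it was 2, 0, 0 and 0. On CF0 Tagln (0.43) and Rhob (0.46) then fell short, and Acta1 (0.51) and Srf (0.75) passed. Of all named probes 29, 16, 2 and 3 then passed. With a limit of 1 the number of members was 1, 0, 0 and 0. With the mean of both no flow arrays as reference it was 3 on RF0, where Srf had 0.52, and 0 on RF1, where Acta1 had 0.46. Median scaling and the reprocessed signals changed none of these counts. The main model holds the time point as a block, and without it limma also called 0 probes in every contrast. Among the members, the second Srf probe and Acta1 had the dimmest signals. The no flow values of that Srf probe lay at the floor (3.32). Acta1 lay above it, at 5.11 on NF0 and 4.62 on NF1, where the lowest detected probe was at 4.22.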
